A study of Homo sapiens with 6 samples.

Results

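The regions described here are the stretches of open chromatin that the authors' annotation named for an olfactory receptor gene. A region was taken where its gene name was OR followed by a family number, 1 or 2 subfamily letters and a member number. There were 727 such regions among the 226920 of the series (0.320%), named for 186 receptor genes, and 215 of them had a mean signal of at least 50 over the 6 libraries. The name says which gene start a region was assigned to and does not say that the region acts on that gene.

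The assay was ATAC-seq, which uses the transposase Tn5 to cut and tag accessible DNA, on the established human melanoma cell line A375. Recombinant HMGA1 protein had been given for 2 h or for 18 h, or was withheld (mock), and each of these 3 groups had 2 libraries. No time is given for the mock group in the labels used here. A difference between 2 h and 18 h therefore cannot be told apart from an effect of time in culture. The comparisons with mock may likewise differ in time as well as in HMGA1. HMGA1 is a small chromatin protein with AT hooks, which contact the minor groove of A/T-rich DNA. All 3 groups came from this line alone, so the values describe 1 cell line. The labels speak of biological replicates but not of separate cultures, so a p-value here measures library-to-library spread, some of it possibly technical. The deposited values are 1 mean signal per region (read counts scaled by the authors' size factors and averaged over the 6 libraries) and the authors' fold changes, with no value for a single library, and the depth of each library is unknown.

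Olfactory receptors are G protein-coupled receptors of the olfactory epithelium, where each sensory neuron chooses a single receptor allele and keeps the others packed in heterochromatin. Odorant binding activates the G protein subunit encoded by GNAL and adenylate cyclase ADCY3, and the cyclic AMP formed opens a channel made of CNGA2, CNGA4 and CNGB1. The genes lie in clusters, often in A/T-rich DNA, and their choice depends on enhancers bound by LHX2 and EBF factors. Class I receptors (families 51 to 56) resemble the receptors of fish and sit in 1 cluster, whereas class II receptors are spread over many chromosomes. Outside the nose a few receptors have been reported in other tissues, among them OR2AT4 in keratinocytes and OR51E2 in prostate and in melanocytes.

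The cells were checked by the regions within 1 kb of the starts of marker genes. Of 8 genes of the melanocyte lineage or of melanoma lines 5 had such a region, with a mean signal of 63.8 to 694 (SOX10, MITF, PMEL, S100B and AXL), while the pigment genes MLANA, TYR and DCT had none listed. Of 9 genes of olfactory sensory neurons 4 had one (GNAL, ADCY3, CNGA4 and ANO2, from 99.5 to 1155), and none was listed for OMP, CNGA2, CNGB1, RTP1 or RTP2. Of 4 keratinocyte genes 2 had one (KRT5 69.4 and KRT14 26.9), so that KRT5 was above SOX10, at 63.8. For comparison, 4 of 4 housekeeping genes had start regions of 526 to 1236.

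The DNA at the gene starts is shown first, because HMGA1 binds A/T-rich DNA and these starts differ in base composition from most others. Sequences are from RefSeq, build GRCh38.p14, and cover 250 bases before to 50 bases after a start, 5′ to 3′ on the strand of the gene. Capitals mark runs of 6 or more bases that are only A or T. Of the 727 regions 6 overlapped such a receptor window, and 7 of 324 receptor windows lay under one. Overlap with regions named for other genes was not looked at, so this is not a count of all open receptor starts. The same share over all gene starts was not worked out. OR6C70 (chr12:55470089-55470388, minus strand, 65.3% A/T) had the region of highest signal within 1 kb of a receptor start, which overlapped the upstream edge of the window by 2 bases. OR7A5 (chr19:14835136-14835435, minus strand, 56.7% A/T) and OR7C1 share 1 window, and 1 region covered its 300 bases. For OR6A2 (chr11:6799640-6799939, minus strand, 54.7% A/T) the overlap was 281 bases. OR14A2 (chr1:247748092-247748391, minus strand, 73.0% A/T) is shown because the 5 regions named for OR14K1, 1 of them called, lie inside the gene, although none overlaps this window. The last 2 are starts of other genes that lie under strong regions named for a receptor, the long noncoding RNA genes LOC102725258 (chr12:48198111-48198410, plus strand, 37.3% A/T) and LINC02750 (chr11:50298313-50298612, plus strand, 32.7% A/T).
OR6C70: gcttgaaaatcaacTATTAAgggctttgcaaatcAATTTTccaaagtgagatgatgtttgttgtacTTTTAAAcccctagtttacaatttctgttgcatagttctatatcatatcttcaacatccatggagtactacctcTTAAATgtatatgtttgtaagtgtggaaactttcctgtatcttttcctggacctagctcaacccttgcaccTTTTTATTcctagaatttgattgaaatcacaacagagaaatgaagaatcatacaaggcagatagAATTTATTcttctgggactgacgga
OR7A5: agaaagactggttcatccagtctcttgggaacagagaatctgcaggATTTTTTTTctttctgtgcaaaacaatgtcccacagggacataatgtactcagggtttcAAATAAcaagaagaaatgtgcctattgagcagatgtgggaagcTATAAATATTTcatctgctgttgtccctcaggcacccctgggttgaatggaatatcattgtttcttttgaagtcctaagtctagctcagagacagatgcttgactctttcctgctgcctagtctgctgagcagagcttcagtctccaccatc
OR6A2: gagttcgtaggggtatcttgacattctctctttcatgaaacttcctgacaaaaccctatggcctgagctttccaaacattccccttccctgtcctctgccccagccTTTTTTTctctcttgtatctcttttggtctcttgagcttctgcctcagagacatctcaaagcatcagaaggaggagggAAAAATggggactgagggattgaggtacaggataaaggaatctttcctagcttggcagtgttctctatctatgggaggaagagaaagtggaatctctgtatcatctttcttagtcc
OR14A2: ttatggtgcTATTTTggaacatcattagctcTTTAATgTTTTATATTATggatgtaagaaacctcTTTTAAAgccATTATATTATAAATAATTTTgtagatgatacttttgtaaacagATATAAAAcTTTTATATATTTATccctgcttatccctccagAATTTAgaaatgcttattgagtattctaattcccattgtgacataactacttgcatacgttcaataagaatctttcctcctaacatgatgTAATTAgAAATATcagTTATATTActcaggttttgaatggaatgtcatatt
LOC102725258: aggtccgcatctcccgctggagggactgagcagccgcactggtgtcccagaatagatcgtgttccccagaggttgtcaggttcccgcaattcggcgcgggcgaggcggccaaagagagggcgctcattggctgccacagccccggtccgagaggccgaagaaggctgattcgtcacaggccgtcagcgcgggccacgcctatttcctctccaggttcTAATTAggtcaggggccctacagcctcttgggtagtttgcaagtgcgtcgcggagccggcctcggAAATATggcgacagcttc
LINC02750: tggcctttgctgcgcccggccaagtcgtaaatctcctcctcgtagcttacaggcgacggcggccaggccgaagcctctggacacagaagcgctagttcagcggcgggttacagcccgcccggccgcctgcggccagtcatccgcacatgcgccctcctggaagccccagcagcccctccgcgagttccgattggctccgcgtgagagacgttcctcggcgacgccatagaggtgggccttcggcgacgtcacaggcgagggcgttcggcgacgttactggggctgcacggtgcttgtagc

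The OR14A2 window held 11 A/T runs, the longest of 20 bases, and the LINC02750 window held 0. Over the 324 receptor windows that RefSeq gives (312 genes, of which 142 name a region here), the median A/T content was 62.3% (interquartile range 56.9 to 66.1), against 41.3% (32.0 to 53.0) over all 35114 gene-start windows. The receptor starts were thus A/T-rich by comparison with most gene starts, and the bitter taste receptor (TAS2R) starts had a like median of 62.5%, while zinc finger gene (ZNF) starts had 38.7%. An A/T run of 6 or more bases occurred in 97.5% of receptor windows and in 61.2% of all windows. The homeobox core TAATTA, searched on both strands, was in 22.2% of receptor windows and in 4.84% of all windows. TATAAA, also searched on both strands, was in 34.6% and in 11.5%. Neither share was particular to receptors. Starts of the hair keratin-associated KRTAP genes had TAATTA in 19.8% and TATAAA in 79.0% of windows. Of 20 TAS2R windows 2 had TAATTA and 5 had TATAAA, and in ZNF windows the shares were lower, at 1.70% and 4.33%. The core bound by EBF factors (TCCC, a gap of any 2 bases, GGGA, on both strands) was in 1.23% of receptor windows and in 1.21% of all. TAATTA and TATAAA can lie inside the A/T runs, so these shares are not independent of base composition. The 7 receptor windows under a receptor-named region had a median A/T content of 56.7%. TAATTA was in 0 of these 7 and TATAAA in 3, too few windows for a comparison. Whether the shares over all receptor windows also hold for open receptor starts was therefore not tested. Matches are given as letters in the window and not as bound sites.

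**Figure D1:**
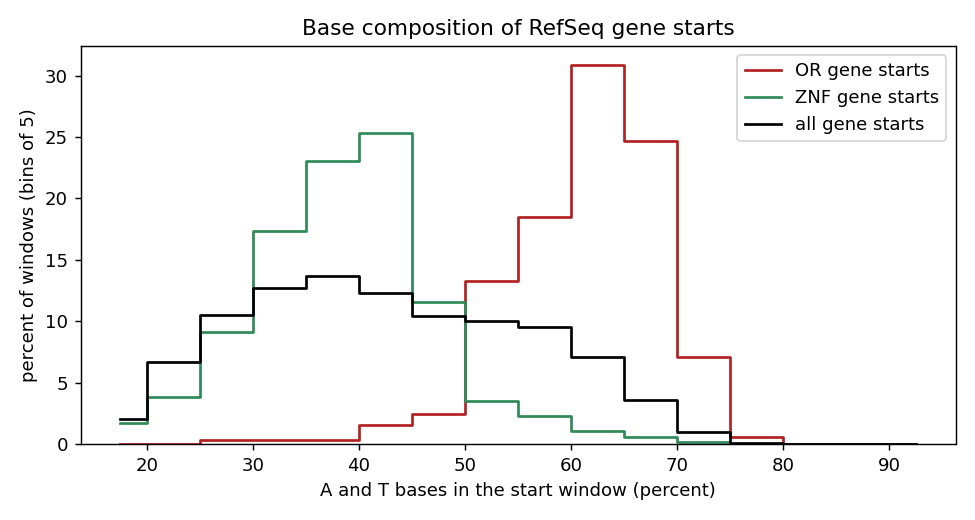
Percent of RefSeq gene-start windows (y axis, bins of 5 percentage points) by A/T content in percent (x axis), for olfactory receptor, zinc finger and all gene starts. The receptor line peaks between 60 and 65% and the zinc finger line between 40 and 45%.

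The regions named for receptors, with the OR4F regions included, had a weaker signal than the whole series. Their median mean signal was 26.8 (interquartile range 12.9 to 59.1, lowest 0.356, highest 4348), against 39.3 (23.6 to 98.1) for all regions of the series. A signal of at least 50 was reached by 29.6% of them and by 41.5% of all regions. The last region above that line was named for OR4D2 (50.4) and the first below it for OR4F5 (49.7). The receptor regions include 158 named for OR4F genes, with a median of 5.67 and 10.1% at 50 or more. Reads of near-identical copies among these genes can be split or dropped in mapping, so their values are uncertain. They make up 158 of the 727 receptor regions but only 16 of the 215 at 50 or more. They thus lower the median and the share given for receptor regions, which were not worked out without them. Regions named for TAS2R genes (39 regions, median 32.8, 33.3% at 50 or more) and for the hair keratin-associated KRTAP genes (95 regions, 33.4, 34.7%) were also below the whole series, and ZNF regions (3430, 42.9, 45.8%) were above it. These are descriptions of the lists, whose regions share libraries and neighbourhoods, and no test was made between them.

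**Figure D2:**
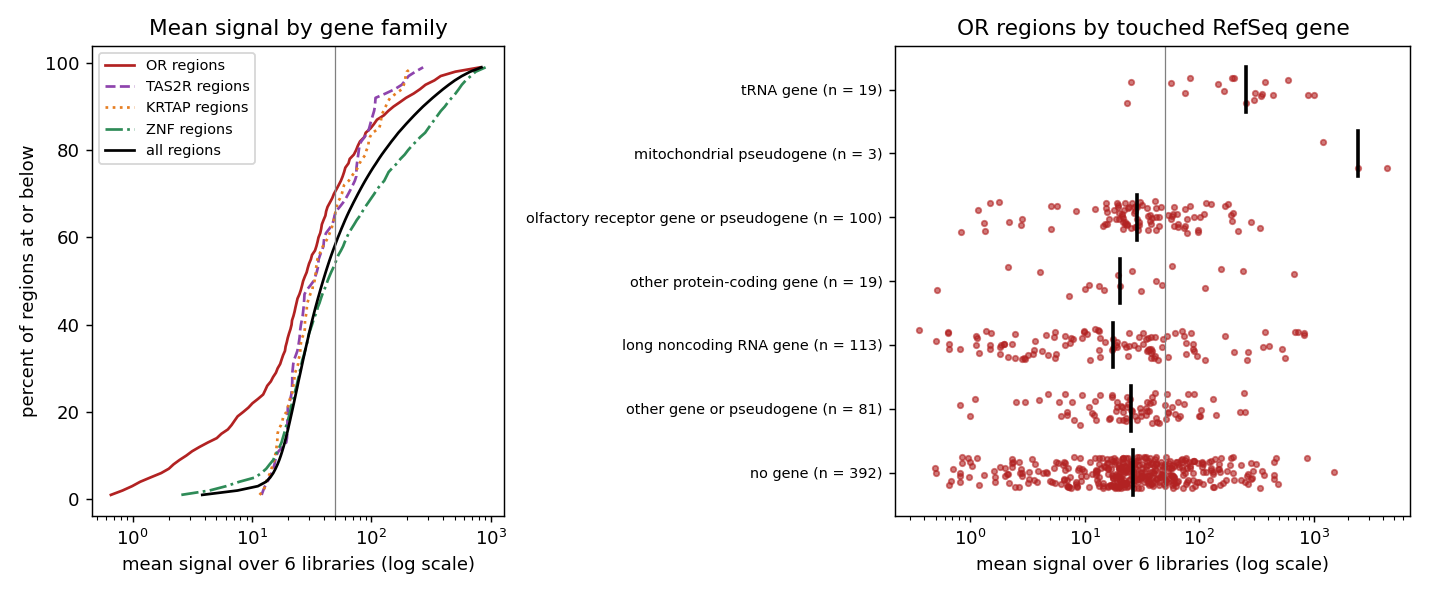
Left, percent of regions (y axis) at or below each mean signal (x axis, log scale) for regions named for 4 gene families and for all regions. Right, the mean signal of each olfactory receptor region (1 point each, log scale) by the kind of RefSeq gene it touches, with the median as a black bar. The grey line is a signal of 50, and the medians of the 19 regions at tRNA genes (254) and of the 3 at mitochondrial pseudogenes (2407) stand to the right of the other medians, while single regions overlap.

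Class I genes supplied 20 regions at 13 genes, all on chromosome 11, with a median signal of 23.5 and 5 regions at 50 or more. Class II genes supplied 707 regions at 173 genes, with a median of 27.0 and 210 regions at 50 or more. RefSeq lists 387 protein-coding genes with such a name, and 184 of them (47.5%) named at least 1 region. Chromosome 1 held 161 of the regions, chromosome 11 held 150 and chromosome 14 held 75. On chromosome 22 all 65 regions carried the name of OR11H1, at distances of 17.1 to 4955 kb from its start.

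Nearest-gene naming reached far for some regions. Of the 727 regions 63 lay over 1 Mb from the start of the gene that names them, all named for OR11H1 or OR11H12. Over 500 kb lay 8.80% of receptor regions and 5.26% of all regions. Within 100 kb, 128 receptor-named regions had 0 receptor genes. At the other end 175 regions had 5 or more receptor genes within 100 kb, and the median was 2. A receptor gene or pseudogene was touched by 102 regions, and 392 touched no RefSeq gene.

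The 9 OR4F genes, several of them near-identical copies near chromosome ends, named 158 regions. Their median signal was 5.67 and 10.1% reached 50, and because reads of such copies can be split or dropped in mapping, these values are uncertain. The OR4F3 regions on chromosome 5 (21 regions, highest 13.4) and the OR4F21 regions on chromosome 8 (12 regions, highest 33.0) all stayed below 50. On chromosome 1, 97 regions had a median of 7.23 and a highest value of 4348.

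Receptor starts themselves were rarely strong. Within 1 kb of the named start lay 20 receptor regions (2.75%), against 16607 of all regions (7.32%), and 4 of the 20 had a signal of at least 50, against 75.8% of all regions at that distance. The medians there were 30.0 for receptor regions and 255 for all regions. The 4 were at OR6C70 (147, 249 bases from the start), OR5AU1 (97.7, 436 bases), OR51D1 (76.1, 117 bases) and OR2C3 (75.1, 459 bases, a region also named for GCSAML). The next were OR6J1 (44.2), OR7A5 with OR7C1 (44.1) and OR6A2 (41.9), and the lowest 5 were at OR4F genes and OR4N4, from 1.31 to 5.71. From 1 kb outward the share at 50 or more varied little for receptor regions, with 31.8% at 1 to 10 kb, 29.3% at 10 to 100 kb, 30.4% at 100 to 500 kb and 28.1% beyond. Over all regions these shares were 36.9%, 38.9%, 40.5% and 36.5%. The gap between receptor regions and all regions was thus widest within 1 kb, given here as a description with no test.

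**Figure D3:**
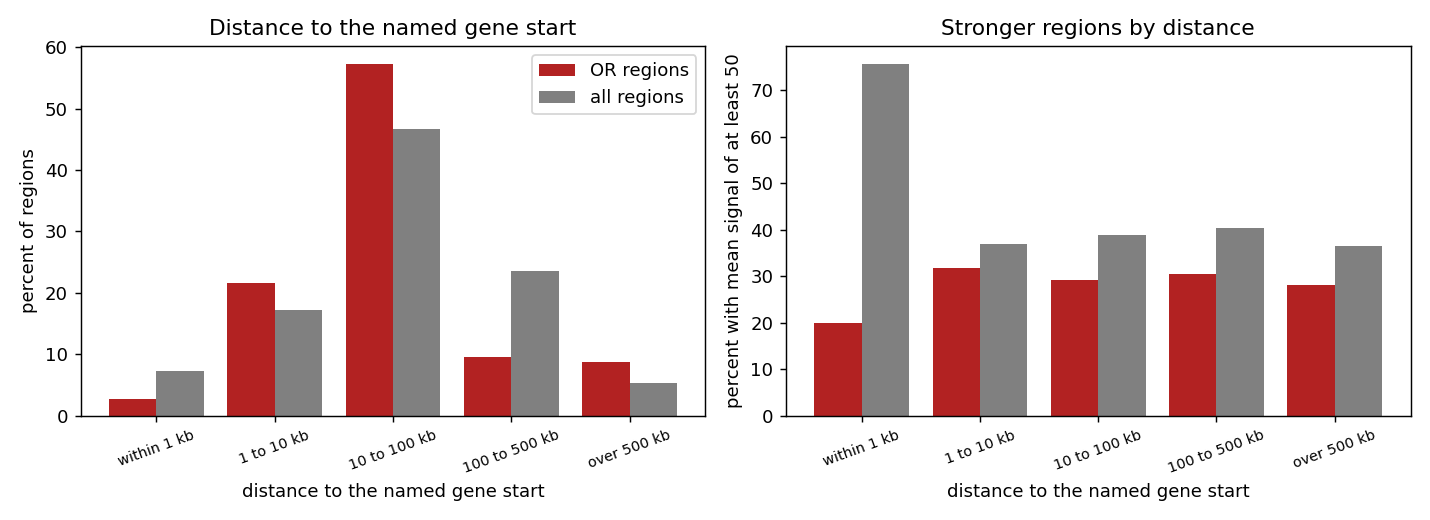
Percent of regions in each class of distance to the named gene start (left) and percent of the regions in that class with a mean signal of at least 50 (right), for olfactory receptor regions and all regions. Within 1 kb the bars on the right stand at 4 of 20 for receptor regions and 75.8% for all regions.

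None of these 4 start regions passed the test described below in any comparison in which it was tested. At 18 h against mock only the OR6C70 region was tested. In the authors' deposited table the log2 change of the OR6C70 region was -0.19 ± 0.20 (SE; adjusted p = 0.861) at 2 h against mock and -0.19 ± 0.20 (adjusted p = 0.942) at 18 h against mock. For OR51D1, a class I gene, the deposited table of the authors gave -0.05 ± 0.27 at 2 h against mock (adjusted p = 0.987) and 0.21 ± 0.27 at 18 h against 2 h (adjusted p = 0.925). Each of these differences was smaller than its standard error.

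The strongest regions that carry a receptor's name lay at other kinds of gene or touched no gene. The kinds of gene were sorted after the signals had been seen, and are given as a description. Of the 20 strongest, 3 touched a mitochondrial pseudogene, 3 a tRNA gene, 6 a long noncoding RNA gene, 1 another protein-coding gene and 7 no gene, and 0 touched a receptor gene or pseudogene alone. The highest value at a receptor gene or pseudogene that touched no tRNA gene was 337, and a region that touched both OR1F1 and the tRNA gene TRP-AGG2-8 had 440.

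On chromosome 1, at 52.4 to 56.6 kb from OR4F16, 3 regions covered the nuclear copies of mitochondrial genes MTATP6P1 (4348), MTND2P28 (2407) and MTCO1P12 (1194). They were the strongest, the second and the fourth of all receptor-named regions. In the authors' deposited table their log2 fold changes at 18 h against mock were -0.30 ± 0.11 (adjusted p = 0.330), -0.40 ± 0.15 (adjusted p = 0.358) and -0.49 ± 0.12 (adjusted p = 0.0566). None passed 0.05. Regions on the mitochondrial genome itself had -0.36 ± 0.09 (MT-CO1, adjusted p = 0.0526) and -0.35 ± 0.09 (MT-CYB, adjusted p = 0.0741) in the same comparison of the authors' deposited table. Whether these regions share reads was not tested. Few of the 158 OR4F regions were tested, and the 3 pseudogene regions are among those. The tested ones had a median log2 fold change of -0.17 at 2 h against mock, with 1 of 15 above 0. At 18 h against mock the median was -0.18, with 1 of 10 above 0. Over all tested regions the medians were -0.06 and -0.07, with 37.8% and 30.5% above 0.

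tRNA genes are read by RNA polymerase III and are usually open. Of the receptor-named regions 19 touched one, at OR1F1, OR2V1, OR2V2, OR6S1, OR4D9 and OR2B2, with a median signal of 254 and 17 of 19 at 50 or more. The 232 tRNA regions of the series without a receptor's name had a median of 198, and 82.3% of them reached 50. The strongest were the TRV-TAC1-1 region named for OR4D9 (1012) and the TRV-AAC1-3 region named for OR2V2 (884).

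Among the 7 strongest regions that touched no gene, the first was named for OR11H1 (chr22:11065855-11066356, signal 1482) and lay 4462 kb from it. Regions over the starts of other genes were also present, 14 in all. The regions at the LOC102725258 and LINC02750 starts printed above, named for OR10AD1 (815) and OR4C12 (722), were 2 of these.

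The comparison of 2 h with mock asks which regions differed between these groups, whose times in culture may not match. A region is called where the adjusted p of the authors' DESeq2 fit was under 0.05. The authors' tables give an adjusted p of exactly 1 below a limit of mean signal, 56.2 here, and such regions are treated as not tested. Of the 727 regions 195 were tested, and 2 rose and 0 fell, a share of 1.03%, against 1.28 percent of all 86137 tested regions (0.856 percent higher and 0.421 percent lower). That share is near the background. The 2 were named for OR1F1 and OR5AK2, both class II.

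The OR1F1 region (chr16:3172000-3172501, mean signal 74.4) lay 31.7 kb from the start of OR1F1 and covered the proline tRNA gene TRP-CGG1-2. Group levels worked out from the deposited mean and fold changes were 48.2 in mock, 98.0 at 2 h and 77.0 at 18 h. Both times after HMGA1 were above mock. By the authors' deposited table its log2 fold change at 2 h against mock was 1.02 ± 0.28 (adjusted p = 0.0266). At 18 h against mock it was 0.67 ± 0.28 and not tested (unadjusted p = 0.0170), and at 18 h against 2 h it was -0.35 ± 0.26 (adjusted p = 0.758), both from the authors' deposited table. The other 6 tRNA regions named for OR1F1, with signals of 82.8 to 440, did not pass the threshold at 2 h, and in the authors' deposited table their log2 fold changes there ran from -0.00 to 0.23.

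The OR5AK2 region (chr11:57072501-57073002, mean signal 111) lay 83.6 kb from the gene and touched the noncoding LOC105369309. Its levels were 81.2 in mock, 147 at 2 h and 106 at 18 h. The 2 h group was the highest. By the authors' deposited table its log2 fold change was 0.85 ± 0.23 at 2 h against mock (adjusted p = 0.0267), 0.39 ± 0.24 at 18 h against mock (adjusted p = 0.757) and -0.46 ± 0.23 at 18 h against 2 h (adjusted p = 0.382).

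The tested receptor regions as a set moved little at 2 h. Their median log2 fold change was -0.02, against -0.06 over all tested regions, and 89 of 195 (45.6%) were above 0, against 37.8%. An unadjusted p under 0.05 was found for 16 (11 higher, 5 lower), or 8.21%, against 10.0 percent of all tested regions. The median standard error was 0.23. Of the tRNA regions with a receptor's name 13 of 17 were above 0 with a median of 0.14, and of the 186 other tested tRNA regions 53.2% were above 0 with a median of 0.02. The 18 tested OR11H1 regions had a median of -0.03 and 0 called.

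**Figure D4:**
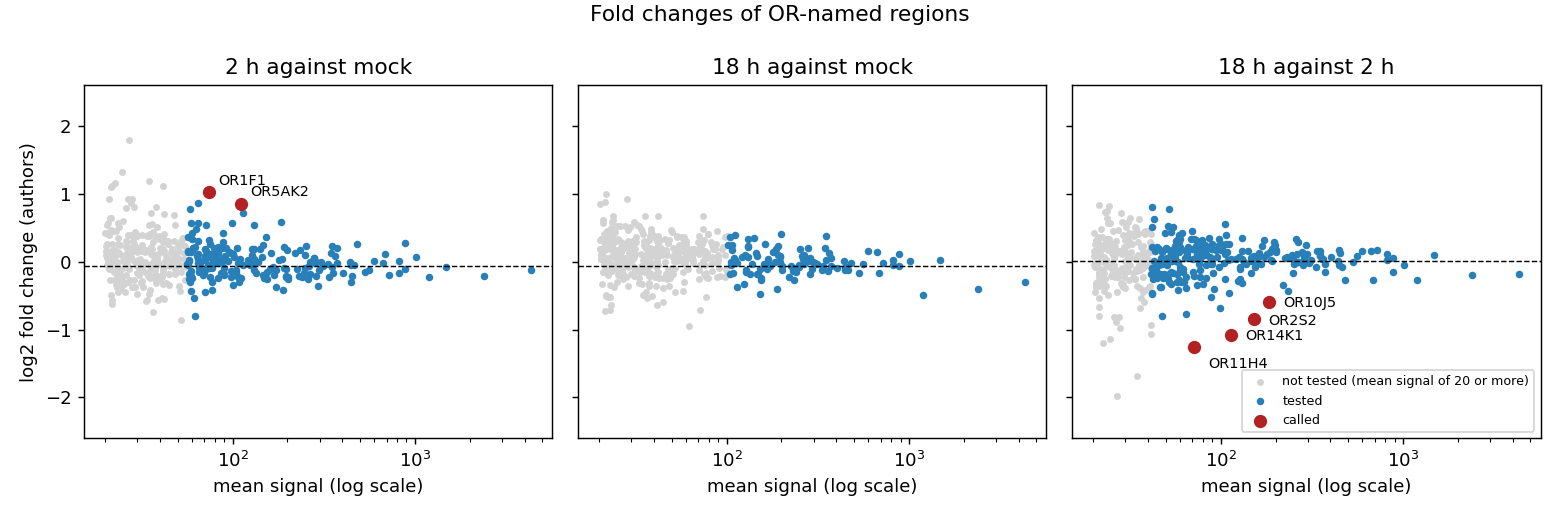
The authors' log2 fold change (y axis) against mean signal (x axis, log scale) for receptor-named regions in each comparison, 1 point per region. Red points are called and labelled by gene, blue points were tested, grey points (signal of at least 20) were not tested, and the dashed line is the median over all tested regions of the series. In 18 h against 2 h the 4 called regions lie below the line.

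The comparison of 18 h with mock asks which regions differed from mock at the later time, with the same limit. The limit of mean signal was 101, and of 105 tested receptor regions 0 were called, against 0.121 percent of all 55341 tested regions (0.00542 percent higher and 0.116 percent lower), by DESeq2. An unadjusted p under 0.05 was found for 7 of the 105 (2 higher, 5 lower), or 6.67%, against 7.89 percent of all. The median log2 fold change was -0.02, against -0.07 over all tested regions. The smallest p belonged to the OR4F16 region at MTCO1P12 described above. Among regions not tested, the one 25.1 kb from OR5AU1 (chr14:21184186-21184687, mean signal 62.0) had levels of 88.9 in mock, 50.97 at 2 h and 46.1 at 18 h. Both times after HMGA1 were below mock in that region. The authors' deposited table gave -0.80 ± 0.31 at 2 h against mock (adjusted p = 0.244) and -0.95 ± 0.31 at 18 h against mock (unadjusted p = 0.00250).

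The comparison of 18 h with 2 h asks how accessibility moved between the times. The limit of mean signal was 41.7, and of 249 tested receptor regions 4 fell and 0 rose, a share of 1.61%, against 3.48 percent of all 108134 tested regions (0.498 percent higher and 2.98 percent lower). The 4 were named for OR11H4, OR14K1, OR2S2 and OR10J5, all class II. The median log2 fold change was 0.05 and 59.8% were above 0, against 0.01 and 51.9% over all tested regions, and 18 regions (7.23%) had an unadjusted p under 0.05, against 11.6 percent of all. In each of the 4 the 2 h group had the highest level. That 2 h stood above 18 h follows from how they were picked. None of the 4 was called at 2 h against mock by the authors' DESeq2 fit (adjusted p from 0.0561 to 0.537).

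The OR11H4 region (chr14:20269154-20269655, mean signal 71.7), 29.9 kb from the gene and touching no gene, had levels of 70.3 in mock, 102 at 2 h and 42.8 at 18 h. It fell by 1.25 on the log2 scale at 18 h against 2 h in the authors' deposited table (SE 0.29, adjusted p = 0.00118), a 2.38-fold difference. The authors' deposited table gave 0.54 ± 0.27 at 2 h against mock (adjusted p = 0.493) and, not tested, -0.72 ± 0.29 at 18 h against mock (unadjusted p = 0.0149).

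The OR14K1 region (chr1:247746386-247746887, mean signal 114) lay 7.77 kb from the OR14K1 start, which itself lies within the span of the receptor gene OR14A2. The region lay inside OR14A2 as well, from 1254 to 1755 bases downstream of the gene start in the window printed above. Its levels were 99.8 in mock, 164 at 2 h and 77.4 at 18 h. The 18 h level was the lowest of the 3. The log2 fold change at 18 h against 2 h was -1.08 ± 0.23 in the authors' deposited table (adjusted p = 0.000269), a 2.12-fold difference. At 2 h against mock the authors' deposited table gave 0.71 ± 0.22 (adjusted p = 0.0745), and at 18 h against mock -0.37 ± 0.24 (adjusted p = 0.784).

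All 5 regions named for OR14K1 touch OR14A2, and in 3 of them the 2 h level stood well above both other groups, a pattern looked at after the called region was known. The region nearest the OR14A2 start, 166 bases inside the gene (chr1:247747474-247747975, mean signal 64.6), had 49.9 in mock, 90.7 at 2 h and 53.2 at 18 h. Its log2 fold changes in the authors' deposited table were 0.86 ± 0.30 at 2 h against mock (adjusted p = 0.135) and -0.77 ± 0.29 at 18 h against 2 h (adjusted p = 0.144), and neither passed. A region 5416 bases inside (chr1:247742224-247742725, mean signal 27.1) had 15.2 in mock, 52.7 at 2 h and 13.3 at 18 h. It was too weak to be tested, and the authors' deposited table gave 1.80 ± 0.46 at 2 h against mock (unadjusted p = 0.000106) and -1.98 ± 0.47 at 18 h against 2 h (unadjusted p = 2.35e-05). The remaining 2, with mean signals of 46.3 and 30.1, did not share the pattern to that degree. The first of these had 45.9 in mock, 52.5 at 2 h and 40.4 at 18 h, and the other had 32.9 in mock, 23.6 at 2 h and 33.7 at 18 h.

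The OR2S2 region (chr9:35936074-35936575, mean signal 153), 21.6 kb from the gene, had levels of 153 in mock, 196 at 2 h and 109 at 18 h. Its log2 fold change at 18 h against 2 h was -0.85 ± 0.20 in the authors' deposited table (adjusted p = 0.00197), a 1.80-fold difference. Against mock the authors' deposited table gave 0.36 ± 0.19 at 2 h (adjusted p = 0.537) and -0.48 ± 0.20 at 18 h (adjusted p = 0.467). The mock level lay between those of the times.

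The OR10J5 region (chr1:159492866-159493367, mean signal 184), 42.6 kb from the gene, had levels of 158 in mock, 238 at 2 h and 158 at 18 h. The mock and 18 h levels were alike to 3 digits. The log2 fold change at 18 h against 2 h was -0.59 ± 0.17 in the authors' deposited table (adjusted p = 0.0255), a 1.51-fold difference, and it missed the threshold when p-values were adjusted over all regions (adjusted p = 0.0516). At 2 h against mock the authors' deposited table gave 0.59 ± 0.18 (adjusted p = 0.0561), just outside the threshold.

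**Figure D5:**
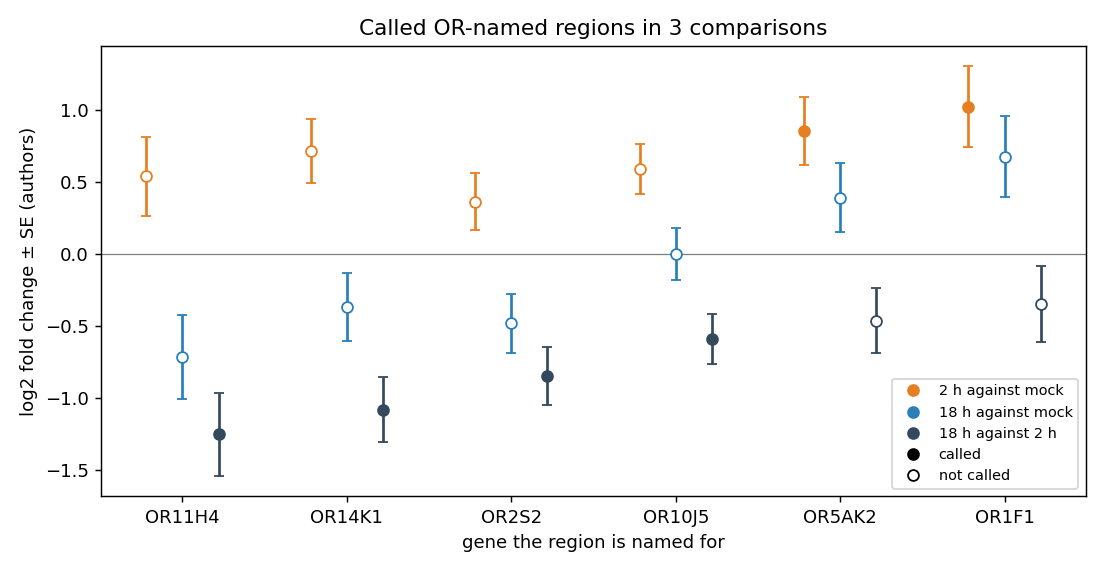
The authors' log2 fold change ± SE (y axis) of the 6 called receptor-named regions (x axis, by gene) in the 3 comparisons, filled where called. The 4 regions called at 18 h against 2 h lie between -1.25 and -0.59 in that comparison. They lie above 0 at 2 h against mock, where none of them was called.

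The 3 comparisons share their libraries, and the fold change of 18 h against 2 h is the difference of the other comparisons, so the 2 h level enters both. Of 5 receptors reported outside the nose (OR2AT4, OR10A6, OR2W3, OR51E1 and OR51E2) none had a called region. OR2AT4 named 11 regions (3 with a signal of at least 50), OR2W3 named 4 (1) and OR10A6 named 3 (2). Over all tested regions 1.28, 0.121 and 3.48 percent were called in the 3 comparisons. The lack of calls among so few regions therefore says little about these receptors. The strongest OR2AT4 region (89.5, 45.4 kb from the start) had 0.05 ± 0.27 at 2 h against mock in the authors' deposited table (adjusted p = 0.985). The strongest OR10A6 region (88.2) had 0.42 ± 0.26 there in the authors' deposited table (adjusted p = 0.651). For OR2W3 (233) the authors' deposited table gave -0.43 ± 0.16 at 18 h against 2 h (adjusted p = 0.119). OR51E1 and OR51E2 named 0 regions.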

How the data were processed

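Only the authors' 3 comparison tables were used, and 0 of their columns hold values of a single library. Per the submitters' processing notes the build was hg38, bcl2fastq 2.17 and DESeq2 were used (no DESeq2 version is named). An aligner, a peak caller, a counter or a Tn5 shift of read ends is not given in the sources used here. Each deposited mean signal is the read count divided by size factors and averaged over 6 libraries, by the authors. The deposited log2 fold changes, standard errors, Wald score (fold change over standard error) and p-values are the authors' own. Whether coordinates count from 0 or 1 is not stated.

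From these, members were found by name, with 1 row per region, and joined to RefSeq GRCh38.p14 (185 of 186 gene names by symbol and 1 by an older name). Adjusted p-values were taken as deposited. Because no table of counts per library was at hand, the edgeR test planned for counts was not used, and the authors' DESeq2 results were counted. The group levels assume that the mean signal is the average of the 3 group levels and that the fold changes are their ratios. The regions eligible to be named were those called, the 10 of highest signal, the 10 of highest signal within 1 kb of their start, the 5 of smallest p in each comparison at a signal of 50 or more, the strongest for each of 5 receptors reported outside the nose, and those next to a threshold. The other OR14K1 regions, the tRNA and mitochondrial regions were chosen after their values were seen. The members and lists were chosen with earlier results of these data known. Scripts ran in Python 3.11.15 with pandas 2.3.3 and were tested on simulated data. Thresholds of 0.01 and 0.1, other signal minimums, centring of fold changes and adjustment over all regions were tried.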

Additional observations from a re-analysis of the deposited data

Results flagged for a closer look

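At 4 regions the level differed between the times, which the deposited comparison of 18 h against 2 h tests directly. Both times share the mock libraries, for which no time is given. HMGA1 exposure and time in culture cannot be told apart in this comparison. In the authors' deposited table the log2 difference, 18 h minus 2 h, was -1.25 at the OR11H4 region (adjusted p = 0.00118) and -1.08 at the OR14K1 region (adjusted p = 0.000269). It was -0.85 at the OR2S2 region (adjusted p = 0.00197) and -0.59 at the OR10J5 region (adjusted p = 0.0255) in the authors' deposited table. With 2 libraries in a group and no value per library, whether a single library decides any of these was not tested.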

How the results depend on the processing

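The counts in this paragraph are of receptor regions only. The share called over all tested regions was not worked out at the other settings. A change in a count is therefore not read as a result about receptor regions. The count of receptor regions called at 2 h against mock was 2. It was 4 at an adjusted p under 0.1, 0 at 0.01, 5 with fold changes centred on their median, 5 with centring within 20 bins of signal, 1 with adjustment over all regions (another OR14K1 region, of signal 27.1) and 1 (OR5AK2) without the regions at tRNA genes and mitochondrial pseudogenes, a setting chosen after seeing the data. At 18 h against mock the count of 0 became 1 at 0.1. At 18 h against 2 h it was between 3 and 5 in all settings run, but not of the same regions. The OR10J5 call was lost at 0.01 and with adjustment over all regions (adjusted p = 0.0516); its adjusted p ran from 0.0208 to 0.0516 over the settings. A weaker OR14K1 region and an OR10H4 region were called with adjustment over all regions, and an OR4N4 region with centring within bins. The number of regions at the signal minimum, 215, was 457 with a minimum of 20 and 107 with 100. The near-zero OR10J5 difference at 18 h against mock changed sign, from -0.0022 to 0.067 with centring on the median and 0.064 within bins. In the shares by sign, centring matters, since all tested regions had a median of -0.06 at 2 h and -0.07 at 18 h against mock. No paired analysis was possible because the tables hold no value per library, and for the same reason leaving out libraries, other size factors, other count models and a filter on low counts were not run. Depth per library is unknown. Regions of low signal, all but 195, 105 and 249 of the 727 in the 3 comparisons, were not tested.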

Other observations

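Genes that work with the receptors or control them were described from a list of 20 genes of olfactory signalling and receptor choice, chosen with earlier results known, of which OMP named 0 regions. The list had 300 regions with a median signal of 37.7. At 18 h against 2 h 8 of its 141 tested regions fell and 1 rose (6.38%, against 3.48 percent of all tested regions), by DESeq2. A region 66.9 kb from LHX2, the homeobox factor of receptor enhancers, had a log2 fold change of -0.80 ± 0.16 in the authors' deposited table (adjusted p = 5.67e-05). A region 139 kb from ANO2, a chloride channel of the sensory cilia, had -1.25 ± 0.29 in the authors' deposited table (adjusted p = 0.00173). The other 6 that fell were named for ANO2, EBF1, EBF2 and SLC24A4 and lay 106 to 465 kb from those gene starts. A region 38.9 kb from REEP1, whose product helps carry receptors to the cell surface, fell at 2 h against mock and rose at 18 h against 2 h. The authors' deposited table gave log2 fold changes of -0.57 ± 0.16 (adjusted p = 0.0396) and 0.71 ± 0.16 (adjusted p = 0.000916) for it. At 2 h against mock that region was the only 1 of 114 called (0.877%, against 1.28 percent of all tested regions), and at 18 h against mock 0 of 70 were called, against 0.121 percent of all.

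Among gene families that, like the receptors, lie in clusters of related copies, KRTAP regions had 6 of 39 called at 18 h against 2 h (15.4%, all lower), TAS2R regions 0 of 15 and ZNF regions 47 of 1748 (2.69%, with 8 higher and 39 lower), against 3.48 percent of all tested regions, of which 2.98 percent were lower. No test between these lists was made.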
